A study of Mus musculus with 9 samples.

Results

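The circadian clock genes described here are the 10 genes Arntl, Per1, Per2, Per3, Cry1, Ciart, Nr1d1, Nr1d2, Dbp and Tef, chosen by name from the 26388 genes counted in the series. Their molecules were counted in 9 livers by Drop-seq, a droplet method that tags the RNA of each captured cell with a cell barcode and each molecule with a unique molecular identifier (UMI). All 9 mice were wild-type males of the C57BL/6 strain aged 8 weeks, and each received 1 of 3 intravenous injections. Mice 3, 6 and 9 received AAVrh.10mCherry, an adeno-associated virus vector that carries the red fluorescent protein mCherry, mice 2, 5 and 8 received AAVrh.10Null, the same vector type named as null in the labels, and mice 1, 4 and 7 received phosphate-buffered saline (PBS). The promoter that drives mCherry, the vector dose, the interval from injection to collection and the time of day of collection are not given in the sources used here. For the 10 genes the question was whether the livers stood at different states of the clock and whether such a difference followed the injections.

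In the mammalian clock, ARNTL (BMAL1) pairs with CLOCK and activates genes through E-box sequences, among them the Per genes, Ciart, Nr1d1, Nr1d2, Dbp and Tef. The PER and CRY proteins and CIART (CHRONO) repress that pair, while the nuclear receptors NR1D1 and NR1D2 (REV-ERB alpha and beta) repress Arntl through a second sequence, the RORE, so that Arntl transcripts run opposite to Dbp transcripts over the day. In mouse liver Dbp, Tef, Per3 and the Nr1d genes are known to be high at times from midday to evening and Arntl around the end of the dark phase. Feeding time shifts these rhythms.

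Of the 10 genes, 9 had a promoter in the RefSeq table of the GRCm38.p6 assembly (Per2 was not in that table). The 250 bases before the start of Ciart, Per3 and Tef are shown because these genes were high in the same livers as Dbp and their windows hold clock sequences, which are in capitals.
Ciart, chr3:95882229-95882478, minus strand: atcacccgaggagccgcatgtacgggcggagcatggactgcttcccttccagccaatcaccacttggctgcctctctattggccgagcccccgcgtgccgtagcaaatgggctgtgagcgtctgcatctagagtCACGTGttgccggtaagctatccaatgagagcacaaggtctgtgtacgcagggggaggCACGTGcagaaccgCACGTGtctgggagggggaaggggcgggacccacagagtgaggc
Per3, chr4:151044666-151044915, minus strand: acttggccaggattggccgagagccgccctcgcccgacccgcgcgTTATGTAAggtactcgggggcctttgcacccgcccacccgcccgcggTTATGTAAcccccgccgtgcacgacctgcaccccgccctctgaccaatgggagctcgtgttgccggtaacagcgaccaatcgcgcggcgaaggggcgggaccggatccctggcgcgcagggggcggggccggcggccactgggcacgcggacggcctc
Tef, chr15:81802423-81802672, plus strand: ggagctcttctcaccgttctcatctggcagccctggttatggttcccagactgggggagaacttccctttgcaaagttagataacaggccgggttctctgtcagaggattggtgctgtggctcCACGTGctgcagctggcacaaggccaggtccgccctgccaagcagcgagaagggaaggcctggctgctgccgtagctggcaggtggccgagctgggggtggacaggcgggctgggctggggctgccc
The capitals mark the E-box CACGTG, which occurs 3 times before Ciart and 1 time before Tef, and the D-box TTATGTAA, the sequence bound by DBP and TEF, which occurs 2 times before Per3. Both strands were searched in 32851 promoter windows of the same length. CACGTG was in 6.02% of these windows and a D-box (TTATGTAA or TTACGTAA) in 0.931%. The first windows of Per1 and Cry1 also held a CACGTG, and those of Nr1d1 and Cry1 the variant CACGTT, which was in 3.85% of windows. No window of the 9 genes held the RORE core TAGGTCA (2.23% of windows), and the windows of Dbp, Nr1d2 and Arntl held none of these sequences. No match overlapped another. Starts were those of the RefSeq table. The GENCODE annotation of Tef begins earlier (chr15:81802421-81826863), so the Tef window shown lies within that gene.

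Levels are given as CPM, the UMIs of a gene per 1000000 UMIs of the liver over barcodes with at least 200 detected genes, and intervals are exact 95% Poisson intervals that cover counting error only. These barcodes held 4234127 to 11220147 UMIs in 8 livers and 291338 UMIs in mouse 7 (PBS), where 3 UMIs correspond to 10.3 CPM, so that mouse 7 gave no usable level for most of the 10 genes. Over all 3600 barcodes of mouse 7, with 1083091 UMIs, there were 1 UMI of Dbp, 12 of Nr1d1 and 11 of Arntl. The livers differed in their libraries. Mice 6, 2 and 8, the livers with high Dbp below, had medians of 764, 725 and 801 UMIs per barcode. The median was 386.5 in mouse 7 and 991 to 1990 in the other livers. Median genes per barcode were 409, 389 and 385 in mice 6, 2 and 8, 228 in mouse 7 and 490 to 838 in the other livers. The part of this difference in the clock gene levels was not tested. Malat1, a nuclear long non-coding RNA, was at 10265 CPM in mouse 6 (AAVrh.10mCherry), 23010 and 15016 CPM in mice 2 and 8 (AAVrh.10Null) and 15944 CPM in mouse 7, and at 2769 to 6307 CPM in the other 5 livers. Mitochondrially encoded genes took 17.8% of UMIs in mouse 6 and 17.3% in mouse 8, against 3.43% to 10.2% in the rest. In mice 2 and 8 only 7 and 20 cell barcodes ended in an undetermined base N, against 1056 to 1735 in the other livers apart from the shallow mouse 7 with 174 (the labels name no batch). Pairs of livers shared 0 to 6 barcodes. The mCherry transcript was at 7979, 6150 and 1797 CPM in mice 3, 6 and 9 (AAVrh.10mCherry). It was also at 24.3 CPM in mouse 1 (PBS) and 22.7 CPM in mouse 5 (AAVrh.10Null), against 0.149 CPM in mouse 8 and 0 in mice 2, 4 and 7. The source of these UMIs in mice 1 and 5 was not tested.

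The D-box activators Dbp and Tef separated the same 3 livers from the rest. Dbp was at 8.26, 75.2 and 10.2 CPM in mice 3, 6 and 9 (AAVrh.10mCherry), 69.3, 6.85 and 50.7 CPM in mice 2, 5 and 8 (AAVrh.10Null), and 15.8, 3.38 and 0 CPM in mice 1, 4 and 7 (PBS). Mice 6, 2 and 8 were thus high, from 2 of the 3 groups, and the intervals of these 3 (the lowest bound was 45.4 CPM in mouse 8) did not meet those of the other livers (the highest bound was 18.3 CPM in mouse 1). Group means of Dbp were 31.2 ± 38.1 CPM with AAVrh.10mCherry, 42.3 ± 32.1 CPM with AAVrh.10Null and 6.38 ± 8.31 CPM with PBS (SD, n = 3 each), and the groups overlapped. Tef was at 25.3, 93.0 and 36.9 CPM in mice 3, 6 and 9, 70.0, 32.1 and 76.4 CPM in mice 2, 5 and 8, and 28.4, 15.4 and 3.43 CPM in mice 1, 4 and 7. The same 3 livers were highest for Tef, and each AAVrh.10Null liver was above each PBS liver, whereas mouse 3 (AAVrh.10mCherry) was below mouse 1 (PBS).

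**Figure D1:**
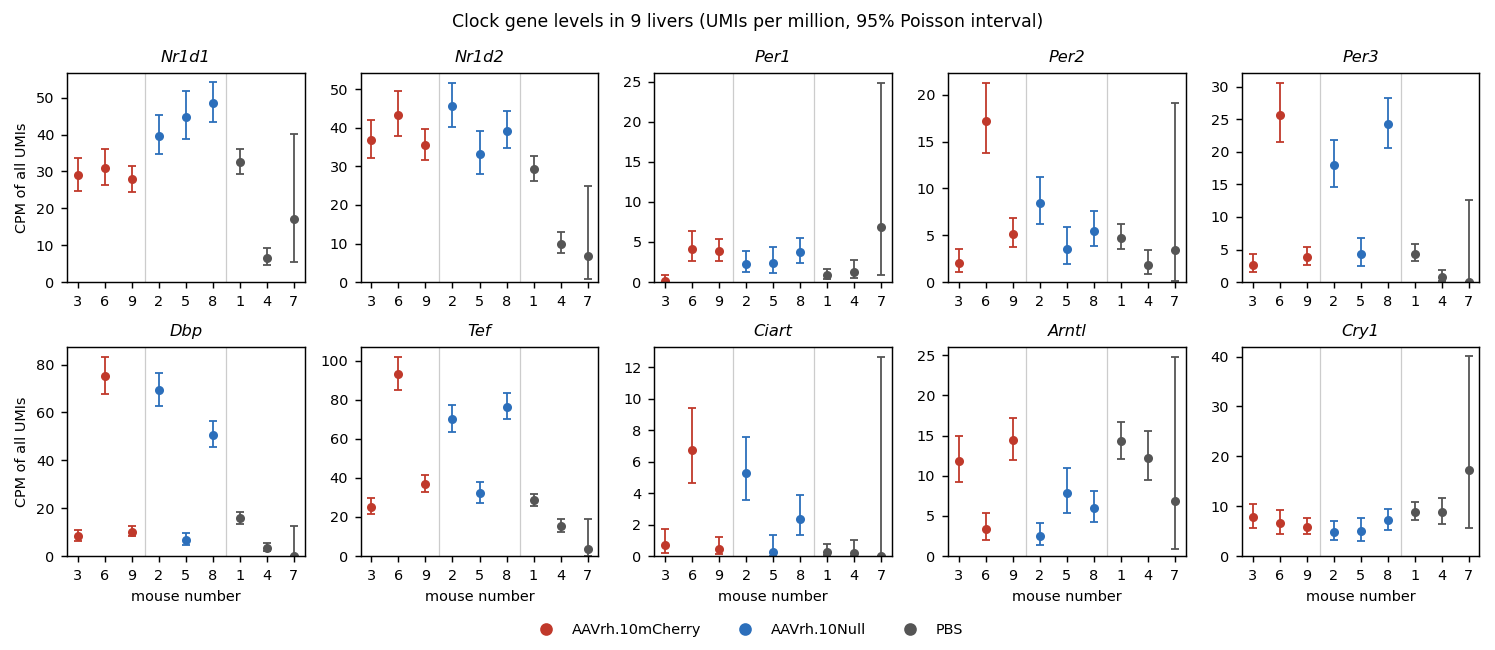
Level of each of the 10 clock genes in each liver (y axis, CPM of all UMIs) by mouse number (x axis), with AAVrh.10mCherry, AAVrh.10Null and PBS livers from left to right. Points are livers and bars are 95% Poisson intervals. Mice 6, 2 and 8 stand above the rest for Dbp, Tef and Per3, and mouse 4 has the lowest Nr1d1 level at 6.56 CPM.

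Among the repressors of the ARNTL and CLOCK pair, Per3 and Ciart followed the same livers. Per3 was at 2.70, 25.7 and 3.84 CPM in mice 3, 6 and 9 (AAVrh.10mCherry), 18.0, 4.25 and 24.2 CPM in mice 2, 5 and 8 (AAVrh.10Null), and 4.37, 0.750 and 0 CPM in mice 1, 4 and 7 (PBS). Ciart, a lowly counted gene with 93 UMIs over all livers, was at 0.674, 6.73 and 0.466 CPM in the AAVrh.10mCherry livers, 5.29, 0.236 and 2.38 CPM in the AAVrh.10Null livers, and 0.267, 0.188 and 0 CPM in the PBS livers, in the same order of mice. For both genes mice 6, 2 and 8 were the 3 highest livers, while mouse 4 was below mice 1 and 5 for Per3 by intervals that did not meet. Per2, which also responds to acute signals such as glucocorticoids, was at 2.02, 17.2 and 5.12 CPM with AAVrh.10mCherry, 8.47, 3.54 and 5.50 CPM with AAVrh.10Null, and 4.72, 1.88 and 3.43 CPM with PBS. Mouse 6 alone stood clear of the others for Per2 (apart from the wide interval of mouse 7), since the interval of mouse 2 (6.24 to 11.2 CPM) met those of mice 9, 8 and 7. Per1 was at 0.169 to 4.16 CPM with AAVrh.10mCherry, 2.29 to 3.71 CPM with AAVrh.10Null and 0.891 to 6.87 CPM with PBS, where the highest value rested on 2 UMIs in mouse 7. Cry1 varied least of the 10, at 5.82 to 7.75 CPM with AAVrh.10mCherry, 4.76 to 7.13 CPM with AAVrh.10Null and 8.81 to 17.2 CPM with PBS. Both vector groups lay below the PBS livers for Cry1, but the intervals of mouse 3 (5.68 to 10.3 CPM) and mouse 8 (5.26 to 9.46 CPM) took in the level of mouse 1 (8.82 CPM).

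The activator Arntl was low in the livers with high Dbp. It was at 11.8, 3.36 and 14.4 CPM in mice 3, 6 and 9 (AAVrh.10mCherry), 2.47, 7.79 and 5.94 CPM in mice 2, 5 and 8 (AAVrh.10Null), and 14.3, 12.2 and 6.87 CPM in mice 1, 4 and 7 (PBS), the last from 2 UMIs. Mice 2 and 6 had the lowest levels, their intervals ended at 4.14 and 5.38 CPM, and mice 8, 7 and 5 came next, with intervals of mice 8 and 5 that met (4.25 to 8.09 CPM in mouse 8 and 5.37 to 10.9 CPM in mouse 5).

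The repressors of Arntl gave a second pattern. Nr1d1 was at 29.0, 30.9 and 27.8 CPM in mice 3, 6 and 9 (AAVrh.10mCherry), 39.7, 44.9 and 48.6 CPM in mice 2, 5 and 8 (AAVrh.10Null), and 32.6, 6.56 and 17.2 CPM in mice 1, 4 and 7 (PBS). Nr1d2 was at 36.8, 43.3 and 35.5 CPM with AAVrh.10mCherry, 45.7, 33.3 and 39.2 CPM with AAVrh.10Null, and 29.2, 9.94 and 6.87 CPM with PBS, in the same order of mice. Mouse 4 was low for both, and mouse 7 for Nr1d2, while mouse 1 lay near the vector livers. Unlike Dbp, the Nr1d genes in these sums over each liver were about as high in mice 3, 5 and 9 as in mice 6, 2 and 8. Mouse 5 combined an Nr1d1 level of 44.9 CPM with a Dbp level of 6.85 CPM, and mouse 4 combined low Nr1d1, Nr1d2 and Dbp with an Arntl level of 12.2 CPM. The livers therefore fell into more than a high and a low state. Mice 6, 2 and 8 had high Dbp, low Arntl and high Nr1d1, though the Arntl interval of mouse 8 met that of mouse 5. Mice 3, 5, 9 and 1 had low Dbp, intermediate or high Arntl and high Nr1d1. Mouse 4 had low Dbp, high Arntl and low Nr1d1, and mouse 7 was too shallow to place. These classes were read from the values summed over each liver and are a description.

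**Figure D2:**
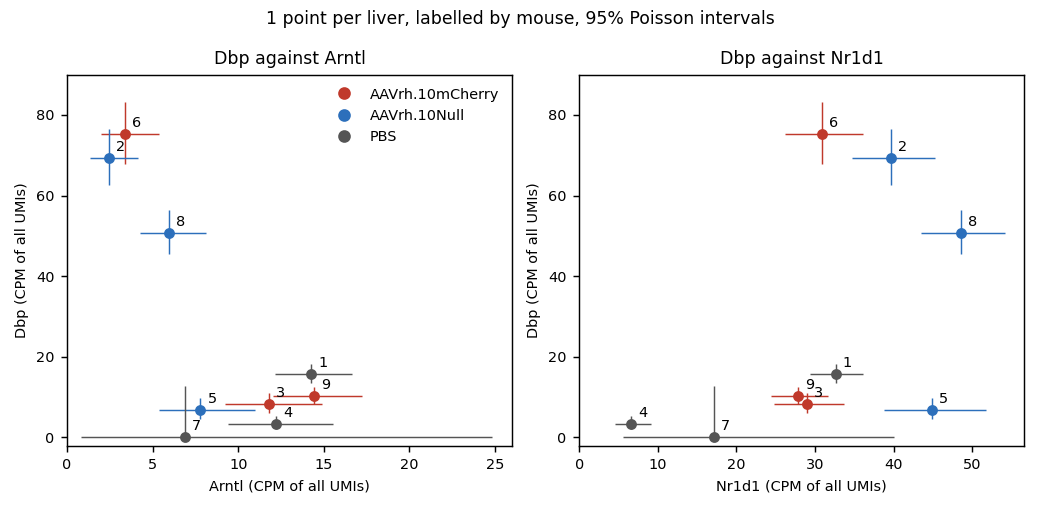
Dbp level (y axis, CPM) against Arntl level (left) and Nr1d1 level (right, x axes, CPM), 1 point per liver labelled by mouse number and coloured by group, with 95% Poisson intervals. Mice 6, 2 and 8 lie apart at 50.7 to 75.2 CPM of Dbp, and mouse 4 lies apart from mice 1, 3, 5 and 9 on the Nr1d1 axis.

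The ratio of Dbp to Arntl UMIs within a liver does not depend on the total. Its log2 value (0.5 added to each count) was -0.51, 4.44 and -0.49 in mice 3, 6 and 9 (AAVrh.10mCherry), 4.76, -0.18 and 3.08 in mice 2, 5 and 8 (AAVrh.10Null), and 0.15, -1.82 and -2.32 in mice 1, 4 and 7 (PBS). Within the AAVrh.10mCherry group the livers spanned from -0.51 to 4.44, about as wide as the AAVrh.10Null group, and mice 3, 9 and 5 lay between mice 1 and 4 of the PBS group. Group means were 1.15 ± 2.85 with AAVrh.10mCherry, 2.55 ± 2.51 with AAVrh.10Null and -1.33 ± 1.31 with PBS (SD, n = 3 each). The groups overlapped, since mouse 5 (AAVrh.10Null) and mice 3 and 9 (AAVrh.10mCherry) lay below mouse 1 (PBS). The value of mouse 7 rested on 0 Dbp and 2 Arntl UMIs, so the added count set it, and the mean of mice 1 and 4 alone was -0.84. The log2 ratio of the summed UMIs of Dbp, Tef, Ciart, the 3 Per genes and both Nr1d genes to those of Arntl and Cry1 was 2.42, 4.89 and 2.61 with AAVrh.10mCherry, 5.14, 3.31 and 4.25 with AAVrh.10Null, and 2.33, 0.90 and 0.62 with PBS. On this broader ratio each vector liver was above each PBS liver, mouse 3 by a small margin over mouse 1. The summed UMIs were 622 and 116 in mouse 3 and 1305 and 259 in mouse 1. No interval was computed for the ratio, so the order of these 2 livers is not settled. The value of mouse 7 rested on 11 and 7 UMIs. Its group means were 3.31 ± 1.38 with AAVrh.10mCherry, 4.24 ± 0.92 with AAVrh.10Null and 1.28 ± 0.92 with PBS (SD, n = 3 each), and the mean of mice 1 and 4 alone was 1.62. Neither ratio was tested, because the members were chosen with results of these data known.

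**Figure D3:**
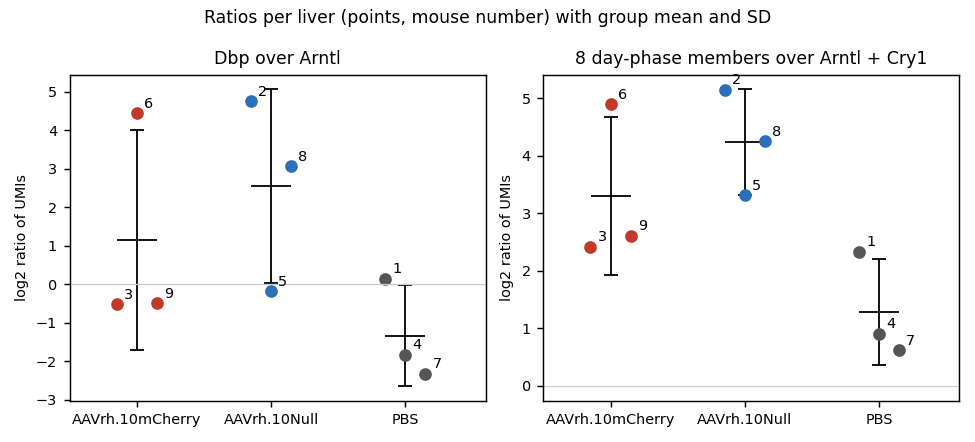
Log2 ratio of Dbp to Arntl UMIs (left) and of the 8 members named in the text to Arntl plus Cry1 (right) per liver, by group. Points are livers with their mouse numbers, and the crossbar and whiskers are the group mean and SD (n = 3). Mice 6, 2 and 8 are the 3 highest livers in both panels.

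Some of the members, though not all, spread widely between mice of a group. The biological coefficient of variation estimated by edgeR, the relative spread within groups beyond counting error, had a median of 0.233 over the 11321 genes tested. It was 0.801 for Ciart, 0.752 for Dbp and 0.697 for Per3, above 99.8%, 99.7% and 99.5% of genes. Per1, Per2, Tef and Arntl lay between 0.418 and 0.558, Nr1d1 at 0.357 and Nr1d2 at 0.294, and Cry1 at 0.211 was below the median. Wide spread was not particular to clock genes, as the immediate early genes Atf3 (0.781) and Fos (0.606) were above 99.7% and 98.6% of genes. Leaving out the shallow mouse 7, the highest liver exceeded the lowest by 22.3-fold for Dbp, 34.3-fold for Per3 and 1.85-fold for Cry1.

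Whether the members followed the injections was tested with edgeR's quasi-likelihood test on the summed UMIs of all 9 livers, with Benjamini-Hochberg adjustment over all 11321 genes that passed the filter on low counts, which all 10 members passed. No member passed the adjusted threshold of 0.05 in any comparison. Both vector groups were compared with the same 3 PBS livers. For AAVrh.10Null minus PBS 0 of 10 members passed, with 0.00883% of all genes passing, and 8 of 10 had an unadjusted p under 0.05, with 12.9% of all genes at that level. Of these 8 members 6 were higher, as were 9.36% of all genes at that level, and 2 were lower, as were 3.52%. The log2 differences were 2.13 (SE 0.96) for Dbp, 2.47 (SE 0.93) for Per3, 1.54 (SE 0.52) for Tef, 1.13 (SE 0.43) for Nr1d1, 1.04 (SE 0.36) for Nr1d2, -1.26 (SE 0.52) for Arntl and -0.78 (SE 0.32) for Cry1. The edgeR adjusted p of the 10 members lay between 0.258 and 0.673, and their median log2 difference was 1.11 against -0.01 over all genes. DESeq2 and limma-voom on the same genes also passed 0 members, each with 6 of 10 at an unadjusted p under 0.05. DESeq2 passed 58 of the 11321 genes here and limma-voom 0. The share of all genes at an unadjusted p under 0.05 was counted for edgeR only, here and in the comparisons below.

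For AAVrh.10mCherry minus PBS 0 of 10 members passed, as did 0% of all genes, and 3 of 10 (Nr1d2, Ciart and Tef, all higher) had an unadjusted p under 0.05, with 6.57% of all genes at that level and 4.34% higher. The log2 differences were 1.54 (SE 0.95) for Dbp, 1.20 (SE 0.51) for Tef, 0.90 (SE 0.36) for Nr1d2 and -0.47 (SE 0.49) for Arntl, and the edgeR adjusted p lay between 0.717 and 0.811. DESeq2 and limma-voom passed 0 members, with 3 and 2 at an unadjusted p under 0.05. For AAVrh.10mCherry minus AAVrh.10Null 0 of 10 members passed in edgeR (0.0265% of all genes) and 0 of 10 had an unadjusted p under 0.05 (7.30% of all genes), also in DESeq2 and limma-voom. In the test of any difference among the 3 groups 0 of 10 passed in edgeR (0.0265% of all genes), DESeq2 and limma-voom, with 3, 4 and 2 at an unadjusted p under 0.05 (9.70% of all genes in edgeR).

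These counts varied with the libraries and the filter used. Without mice 2 and 8, which leaves mouse 5 as the only AAVrh.10Null liver, assumed to vary like the other groups, and so weakens the test itself, 0 members had an unadjusted p under 0.05 for AAVrh.10Null minus PBS and the log2 difference of Dbp was -0.43, and the difference in barcode ends between mice 2 and 8 and the rest cannot be told apart from the injection for the other AAVrh.10Null values. The same count was 5 without mouse 1, 4 without mouse 2, 2 without mouse 4 and 5 without mouse 8. Without mouse 6 the AAVrh.10mCherry minus PBS difference of Dbp was -0.15 and 0 members had an unadjusted p under 0.05, and that count was also 0 without mouse 4 or without mouse 7, 5 without mouse 1 and 7 without mouse 3. For AAVrh.10mCherry against AAVrh.10Null it was 5 without mouse 6. The share of all genes at that level was not counted in the fits with livers left out. A shift of the members there cannot be told apart from a shift of all genes. With no filter on low counts, 7 members passed in AAVrh.10Null minus PBS (Dbp, Per3, Nr1d1, Nr1d2, Arntl, Ciart and Tef, with 306 of 26282 genes passing) and 4 in AAVrh.10mCherry minus PBS (Dbp, Per3, Ciart and Tef, with 102 genes).

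The 3 livers with high Dbp were also 3 of the 4 with the most Malat1, so the levels were read again by the Malat1 share of barcodes. In barcodes with at most 1% Malat1 UMIs Dbp was at 73.3 CPM in mouse 6, 44.5 CPM in mouse 2 and 27.9 CPM in mouse 8, against 7.47 and 9.08 CPM in mice 3 and 9, 4.92 CPM in mouse 5, and 12.6, 3.44 and 0 CPM in mice 1, 4 and 7. In barcodes with more than 1% Malat1 it was at 81.3, 106 and 89.4 CPM in mice 6, 2 and 8, against 13.1 and 14.8 CPM in mice 3 and 9, 13.3 CPM in mouse 5, and 35.7, 2.60 and 0 CPM in mice 1, 4 and 7. The same 3 livers were thus highest in either class of barcodes. Arntl in the lower class was at 2.34, 0.889 and 5.19 CPM in mice 6, 2 and 8, against 10.6 and 14.2 CPM in mice 3 and 9, 6.14 CPM in mouse 5, and 13.6, 11.1 and 12.0 CPM in mice 1, 4 and 7 (the last from 2 UMIs), so the log2 ratio of Dbp to Arntl stayed at 4.89, 5.43 and 2.40 in mice 6, 2 and 8. The zeros of Dbp in mouse 7 had upper bounds of 22.2 CPM in the lower and 29.5 CPM in the upper class.

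Per3 and Tef depended more on the class. Per3 in barcodes with at most 1% Malat1 was at 12.0, 4.45 and 8.03 CPM in mice 6, 2 and 8, against 69.7, 37.9 and 51.7 CPM in barcodes with more. Tef in the same 3 livers was at 59.8, 35.6 and 35.4 CPM in the lower class, against 199, 121 and 146 CPM in the upper class. Both genes were still lower in the other 6 livers within the lower class, at 0 to 1.84 CPM for Per3 and 0 to 21.4 CPM for Tef. For Per3 there, the interval of mouse 2 (2.49 to 7.34 CPM, 15 UMIs) met those of mice 5 and 9. The Per3 zero of mouse 7 had an upper bound of 22.2 CPM. In the upper class some intervals met for both genes, although the same 3 livers were highest. Tef there was at 118 CPM in mouse 1 (PBS), and its interval (101 to 136 CPM) met that of mouse 2 (107 to 136 CPM). Tef intervals of mice 3 and 9 (101 and 97.4 CPM) also met that of mouse 2. Per3 in mouse 1 was at 26.0 CPM (18.6 to 35.4 CPM), which met mouse 2 (30.4 to 46.7 CPM). Nr1d1 in the lower class was at 17.5, 23.9 and 17.0 CPM in mice 3, 6 and 9, 25.2, 23.4 and 30.2 CPM in mice 2, 5 and 8, and 26.9, 5.66 and 12.0 CPM in mice 1, 4 and 7, and there the AAVrh.10Null livers were no longer all above mouse 1 (PBS). In the upper class Nr1d1 was at 98.5, 53.1 and 70.1 CPM in mice 3, 6 and 9, and 61.0, 116 and 79.8 CPM in mice 2, 5 and 8. The PBS livers were at 68.9, 18.2 and 24.0 CPM in mice 1, 4 and 7 (3 UMIs in the last). Mice 3 and 5 there lay above mice 6 and 2 by intervals that did not meet, while the interval of mouse 9 met theirs. The part of the Malat1 share in the levels over all barcodes was not tested beyond this split.

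Cell types were read from clusters. Clusters with markers of other liver cell types, called endothelial-like, Kupffer/macrophage-like, stellate/fibroblast-like, T/NK-like and red cell-like from the markers listed for them, held 2134 of 44898 barcodes, and the other 42764 were left unnamed, with 39850 CPM of Alb. The clusters were rebuilt from the counts, no doublet caller was run, and in a sum over a liver fewer cells of a type and less RNA per cell cannot be told apart. Several unnamed clusters came mostly from 1 liver. Their largest shares were 99.5% and 100% from mouse 6, 92.8% from mouse 2 and 89.7% from mouse 8. Others were 87.6% from mouse 4 and 85.7% from mouse 9. Outside the named clusters Dbp was at 75.9, 69.9 and 51.2 CPM in mice 6, 2 and 8, against 0 to 16.1 CPM in the rest, close to the values of the whole liver. Within the named clusters together it was at 62.6, 60.2 and 32.5 CPM in mice 6, 2 and 8 (16, 20 and 6 UMIs), against 0 to 14.6 CPM in the other livers. The interval of mouse 8 there (11.9 to 70.6 CPM) met those of all the other livers. The intervals of mice 6 and 2, from 35.8 and 36.8 CPM, met those of mice 5 and 7, which reached 40.3 and 127 CPM. Alb, a hepatocyte gene, stood at 24480 CPM or more in each of these clusters, so RNA from hepatocytes was present there, and its part in their Dbp level was not tested.

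**Figure D4:**
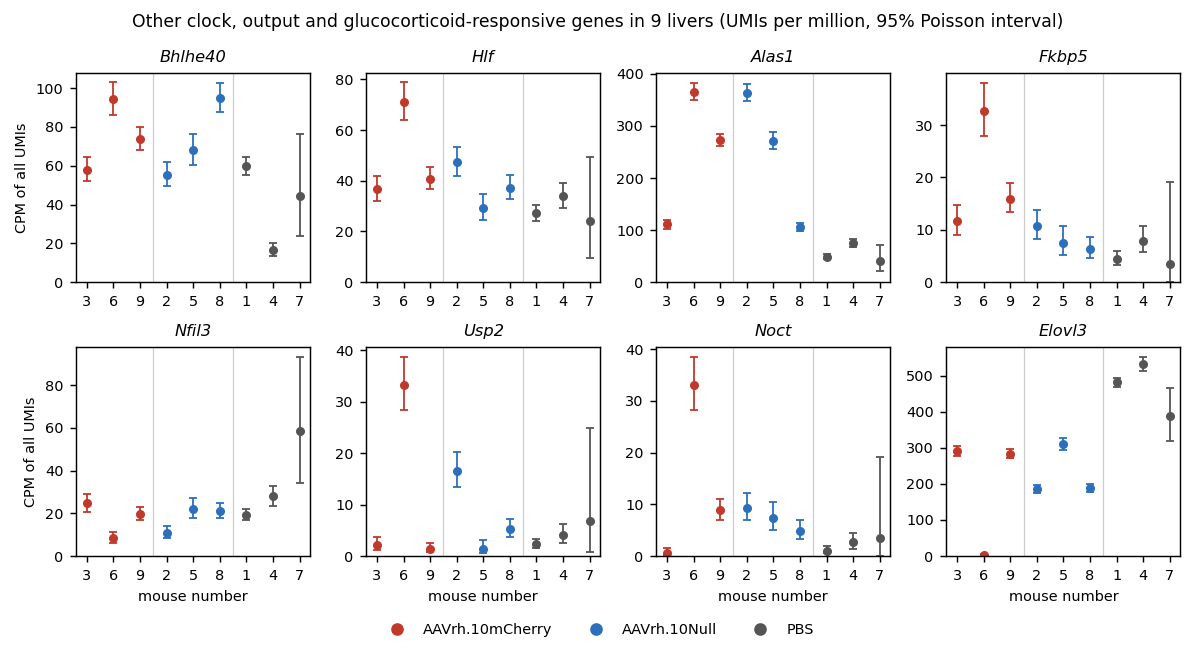
Level (y axis, CPM of all UMIs, 95% Poisson intervals) of 4 genes named by their rank in the test of 3 groups, none of which passed (Bhlhe40, Hlf, Alas1, Fkbp5) and 4 chosen after their values were seen (Nfil3, Usp2, Noct, Elovl3) by mouse (x axis), with AAVrh.10mCherry, AAVrh.10Null and PBS livers from left to right. Usp2 and Noct are highest in mouse 6, where Elovl3 is at 3.96 CPM.

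The other clock genes on the list, 13 of 16 of which passed the filter, were read in the same fit. In edgeR 0 of 13 passed in any comparison. At an unadjusted p under 0.05 there was 1 of 13 for AAVrh.10Null minus PBS (12.9% of all genes). There were 0 of 13 for AAVrh.10mCherry minus PBS (6.57% of all genes). Usp2, a deubiquitinase whose transcript is strongly rhythmic in liver, had a coefficient of variation of 0.802. Usp2 was at 2.19, 33.2 and 1.40 CPM in mice 3, 6 and 9, 16.6, 1.42 and 5.20 CPM in mice 2, 5 and 8, and 2.32, 4.13 and 6.87 CPM in mice 1, 4 and 7 (2 UMIs in the last). It was highest in mice 6 and 2, and mouse 8 was much nearer to the rest than for Dbp. Nfil3, which binds the D-box as a repressor, was at 24.6, 8.31 and 19.8 CPM with AAVrh.10mCherry, 10.9, 22.2 and 21.1 CPM with AAVrh.10Null, and 19.4, 27.9 and 58.4 CPM with PBS, lowest in mice 6 and 2. Bhlhe40, which represses E-box genes, was at 58.0, 94.4 and 74.0 CPM with AAVrh.10mCherry, at 55.4 CPM or more in each AAVrh.10Null liver, and at 59.7, 16.5 and 44.6 CPM with PBS, lowest in mouse 4 as were Nr1d1 and Tef among the 8 deeper livers. Hlf, the third activator of the family of DBP and TEF, was highest in mouse 6 at 71.2 CPM and at 24.0 to 47.5 CPM in the other livers.

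Of the clock output genes of liver, 0 of 13 passed in any comparison with edgeR, with 3 at an unadjusted p under 0.05 for AAVrh.10Null minus PBS (12.9% of all genes) and 2 in each comparison that involves AAVrh.10mCherry (6.57% of all genes against PBS and 7.30% against AAVrh.10Null). Alas1, the rate-limiting enzyme of heme synthesis in liver, was at 111, 366 and 273 CPM in mice 3, 6 and 9, 364, 272 and 106 CPM in mice 2, 5 and 8, and 48.9, 75.4 and 41.2 CPM in mice 1, 4 and 7. Each vector liver was above each PBS liver, with log2 differences of 1.97 (SE 0.47, edgeR adjusted p = 0.717) for AAVrh.10mCherry minus PBS and 2.05 (SE 0.47, edgeR adjusted p = 0.158) for AAVrh.10Null minus PBS. The order of Alas1 within groups was not that of Dbp, since mouse 8, high in Dbp, was the lowest AAVrh.10Null liver. Noct, a rhythmic phosphatase also induced by acute signals, was at 0.506, 33.0 and 8.85 CPM with AAVrh.10mCherry, 9.35, 7.32 and 4.90 CPM with AAVrh.10Null, and 1.07, 2.63 and 3.43 CPM with PBS. Elovl3, a fatty acid elongase that is rhythmic in male mouse liver, was at 292, 3.96 and 284 CPM with AAVrh.10mCherry, 186, 310 and 188 CPM with AAVrh.10Null, and 482, 532 and 388 CPM with PBS. Mouse 6 stood apart from the 8 other livers for both genes.

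Genes that respond to glucocorticoids and to cell isolation were read beside the clock genes. The summed level of 7 glucocorticoid targets was 1157, 1834 and 1483 CPM in mice 3, 6 and 9, 1270, 1451 and 1810 CPM in mice 2, 5 and 8, and 1027, 1398 and 1493 CPM in mice 1, 4 and 7. It was highest in mice 6 and 8, which also had high Dbp, but not in mouse 2, and its part in the clock gene levels was not tested. Pck1 and Tat set most of this sum. Group means of Pck1 were 873 CPM with AAVrh.10mCherry, 1035 CPM with AAVrh.10Null and 804 CPM with PBS. Those of Tat were 443, 359 and 343 CPM, and no other target had a group mean above 80.5 CPM. Of the 7 targets 0 passed in edgeR in any comparison, with 0 at an unadjusted p under 0.05 for AAVrh.10Null minus PBS (12.9% of all genes). There was 1, Fkbp5, in both comparisons that involve AAVrh.10mCherry (6.57% of all genes against PBS and 7.30% against AAVrh.10Null). Fkbp5, a co-chaperone of the glucocorticoid receptor, was at 11.6, 32.6 and 16.0 CPM in mice 3, 6 and 9, 10.8, 7.56 and 6.39 CPM in mice 2, 5 and 8, and 4.46, 7.88 and 3.43 CPM in mice 1, 4 and 7. It was highest in mouse 6, mouse 8 was not above mouse 4, and the log2 differences were 1.61 (SE 0.40, edgeR adjusted p = 0.717) for AAVrh.10mCherry minus PBS and 1.16 (SE 0.36, edgeR adjusted p = 0.578) for AAVrh.10mCherry minus AAVrh.10Null. The summed level of 14 immediate early genes was 1750, 1479 and 2013 CPM with AAVrh.10mCherry, 712, 1990 and 1087 CPM with AAVrh.10Null, and 1722, 284 and 3288 CPM with PBS. Mouse 4, low in Nr1d1 and Nr1d2, was lowest on this sum, and mouse 7 was highest.

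Across the 9 livers, the genes whose log2(CPM + 1) pattern was most like that of Dbp among 11320 others were D430013B06Rik (Pearson r = 0.976), Per3 (0.973), Tef (0.968), Tbc1d24 (0.961), Slc25a22 (0.960), Gm44291 (0.958), 9430034N14Rik (0.953) and Zfp994 (0.949). Those most opposite were 4732491K20Rik (-0.970), Creg1 (-0.970), Rilpl2 (-0.944) and Cep41 (-0.942). Per3 and Tef thus ranked 2nd and 3rd by likeness, Cry2 ranked 41st, and Nfil3 11th from the opposite end. Of the members, Cry1 (-0.71), Arntl (-0.55) and Per1 (-0.06) had negative r with Dbp, and Nr1d1 had 0.60. These r values describe 9 livers of which 3 lie apart, the points share libraries that differ in depth and Malat1 share, and no test was made. D430013B06Rik, Gm44291 and 9430034N14Rik rested on few UMIs, with highest levels of 3.76, 2.57 and 3.36 CPM and 0 in mouse 7. 4732491K20Rik and Cep41 were highest in mouse 7 at 3.43 and 6.87 CPM, below the level of 3 UMIs there (10.3 CPM). For Arntl the most alike were Mrpl40 (0.938), Clpx (0.937), Tars (0.929), Txnrd3 (0.918), Otc (0.913), Ttc32 (0.913), Slc25a1 (0.906) and Serinc2 (0.903), and the most opposite Dkc1 (-0.947), Gm38070 (-0.928), E430021H15Rik (-0.918) and Akap9 (-0.917).

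In the GENCODE annotation of GRCm38, Dbp (chr7:45705088-45710203, plus strand) overlaps Sphk2 on the minus strand, Nr1d1 (chr11:98767932-98775333, minus strand) overlaps Thra on the plus strand, and Per3 (chr4:151003652-151044665, minus strand) overlaps Camta1 on the same strand. Whether the authors' counting used strand is not given in the sources used here. Sphk2 was at 17.6, 28.2 and 27.5 CPM in mice 6, 2 and 8, and at 17.2 to 31.6 CPM in the other livers. Thra ranged from 7.09 to 17.2 CPM and Camta1 from 10.4 to 24.0 CPM, both highest in mouse 7 from 5 and 7 UMIs.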

How the data were processed

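The authors deposited a table of UMI counts per gene and cell barcode for each liver, and the counts were used as deposited. Per the submitters' processing notes the build was mm10 and Seurat was used, and per the deposited text file bcl2fastq 2.19 demultiplexed the reads. The aligner, the annotation and strand use in counting are not given in the sources used here. UMIs were summed per liver over 44898 barcodes with at least 200 genes (291338 to 11220147 UMIs per liver). Exact Poisson intervals (95%) cover counting error only, and a count of 0 was read against a floor of 3 UMIs. The mouse was the replicate, grouped by the labels.

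Groups were tested with edgeR 4.0.16 (TMM, filterByExpr, quasi-likelihood F test, Benjamini-Hochberg, 0.05) in 1 fit of 9 livers without covariates, checked on simulated counts. The simulated counts gave every gene the same relative spread. That check therefore does not cover genes that spread as widely as Dbp, Per3 and Ciart. DESeq2 1.42.0, limma 3.58.1 (voom), other barcode sets, normalisations, filters and left-out livers were alternatives. Likeness used log2(CPM + 1). Clusters came from scanpy 1.11.5 and leidenalg 0.10.2 (2000 variable genes, 30 components, 15 neighbours, resolution 1) and were named where 3 or more listed markers were among the 30 leading genes. Ratios have 0.5 added to each count.

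The members and gene lists were chosen with earlier results of these data known. All members are named. Of other lists, passing genes or else the 3 with the smallest p in the test of 3 groups were to be named, and of alike genes the 8 highest and 4 lowest r. Nfil3, Usp2, Noct, Elovl3 and Cry2 were chosen after their values were seen. Atf3 was named likewise. Some genes that the rule names are not reported here. Lpin1, Avpr1a, Sgk1, Zbtb16, Fosb, Fos and Klf6, also named by that rule, had edgeR adjusted p values of 0.412, 0.500, 0.585, 0.618, 0.573, 0.638 and 0.679 in that test.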

Additional observations from a re-analysis of the deposited data

How the results depend on the processing

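The count of 0 passing members was the same under 22 alternatives for each vector against PBS, 23 for AAVrh.10mCherry against AAVrh.10Null and 21 for any difference. It changed only with no filter on low counts, to 4 for AAVrh.10mCherry and 7 for AAVrh.10Null against PBS and 5 for any difference, and the cause was not tested. Of 450 repeated log2 differences 5 changed sign: Dbp in AAVrh.10Null minus PBS without mice 2 and 8 (-0.43), and, for AAVrh.10mCherry minus PBS, Dbp and Per2 without mouse 6 (-0.15 and -0.064) and Nr1d1 without mouse 4 (-0.13) and without mice 7 and 4 (-0.35). Leaving out mice 2 and 8, or 7 and 4, leaves 1 liver in its group, which is assumed to vary like the others. With each liver left out, the AAVrh.10mCherry minus PBS difference ranged from -0.15 to 3.16 for Dbp, -0.064 to 1.82 for Per2 and -0.13 to 1.74 for Nr1d1. Each of 117 repeated ratios per liver moved by less than the SD of its group, which is a wide margin (up to 2.85 log2 units). Of 90 levels, 29 moved by more than the group's SD in barcodes with at most 1% Malat1 UMIs, 24 in barcodes with at least 500 genes, 12 without mitochondrial genes and Malat1 in the totals, 2 with TMM scaling, 1 over all barcodes, and 0 with the mitochondrial limit or without the named clusters. Of the 8 genes most like Dbp, 5 were kept with a pseudocount of 5 CPM, 3 without mice 2 and 8, 4 without mouse 7, and 2 to 7 when each liver was left out. The Malat1 limit, the removal of named clusters and the joint removal of mice 7 and 4 were chosen after the data were seen. The planned permutation tests of correlations between member pairs were not run, because the livers fall into separate clusters. No paired analysis was possible because mouse numbers are not shared between groups. Depth limits mouse 7, where 3 UMIs are 10.3 CPM.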
